A study of Mus musculus with 12 samples.

Results

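The neuregulins Nrg1, Nrg2 and Nrg3 and the ErbB receptors Egfr, Erbb2, Erbb3 and Erbb4 were followed in the medial prefrontal cortex (PFC) of mice raised with or without microbes. These 7 genes were taken by name as a ligand and receptor family, out of 41388 genes in the count table, and all 7 had enough reads to be tested. None of the 7 passed the test for a difference between groups after correction over all genes. The furthest from no difference were Erbb3, with 1.44 times the CON level in GF mice, and Erbb2, with 0.740 times the CON level.

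Neuregulins carry an EGF-like domain and are made as membrane proteins that proteases can cut free. They bind ErbB4, and some of them also ErbB3. These receptors pair with each other or with ErbB2 and pass the signal on through kinases of the PI3K and MAP-kinase pathways. ErbB2 has no known ligand of its own and serves as a partner, ErbB3 has a weak kinase and depends on its partner, and EGFR answers to EGF and its relatives. In nerves of the body, neuregulin 1 on axons controls how thickly Schwann cells wrap them. In the cortex, ErbB4 is known from GABAergic interneurons and ErbB3 from cells of the oligodendrocyte lineage.

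The mice were Swiss Webster males aged 10 weeks, and neither an engineered allele nor a drug is named for any group. Conventionally raised mice (CON) carried an ordinary microbiota and lived in the standard animal unit. Germ-free mice (GF) were kept without microbes in isolators. The exGF mice were GF until postnatal day 21 and were then colonized in the standard unit, housed next to CON mice. In comparisons with GF, housing therefore differs together with microbes, and the design cannot separate them. Each group has 4 RNA-sequencing libraries, and each library pooled equal amounts of RNA of 2 to 3 animals, so the error given beside each mean is the spread over pools. The 4 columns named GFR in the table were taken as exGF because no other samples remained for them, and GFR1 to GFR4 are the names of those columns rather than of single samples.

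Read pairs counted on genes ran from 22757169 to 29134760 in CON, from 13280926 to 23465074 in GF and from 22702599 to 28615407 in exGF. Camk2a and Slc17a7 of excitatory neurons stood at 3863 to 4646 and 1333 to 1629 CPM (read counts scaled to a common library size) in the 12 libraries. No library of another brain region was at hand, so these values cannot check the label of the PFC. Summed CPM of 8 striatal genes was 441.4 in CON replicate 2 and 412.3 in GFR4, against 196.3 to 267.8 in the other libraries. Summed CPM of 10 mature oligodendrocyte genes was 2187 to 2690 in CON, 3400 to 5709 in GF and 2166 to 3657 in exGF libraries, and none of these genes was at 0 in any library.

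On the GRCm38 assembly Egfr spans bases 16752203 to 16918158 and Erbb2 98412470 to 98437716 of chromosome 11, Erbb3 128567523 to 128589652 of chromosome 10 and Erbb4 68032186 to 69108059 of chromosome 1. The long loci of the ligands and of Erbb4 are mostly intron, and the exons of all transcripts together come to 10351 bases in Nrg1, 3139 in Nrg2, 6817 in Nrg3, 11326 in Egfr, 5210 in Erbb2, 6016 in Erbb3 and 12355 in Erbb4.

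The receptors are relatives, so it was checked whether reads of 1 receptor could be counted on another. The coding stretch of the kinase catalytic loop, among the most conserved parts of these proteins, is shown for the 4 receptors 5′ to 3′ on the coding strand. Each stretch is 24 bases in exon 21, and capitals mark the positions at which the 4 receptors are not all identical.
Egfr, chr11:16904338-16904361, plus strand: caCCgTgaCTtGgcAGCcAgGaaT
Erbb2, chr11:98434247-98434270, plus strand: caCAgGgaCCtAgcTGCcCgAaaC
Erbb3, chr10:128572533-128572556, minus strand: caTAgGgaCCtTgcGCTcCgGaaT
Erbb4, chr1:68080739-68080762, minus strand: caTCgGgaTCtGgcAGCcCgCaaT

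In this stretch 12 of 24 bases were shared by all 4 receptors, and any pair differed at 6 to 9 bases. Egfr and Erbb4 were the closest pair with 6 differences, and Egfr and Erbb3 the farthest with 9. Over whole exons, no 31-base word of Erbb2, Erbb3, Erbb4 or Nrg2 occurred in another gene. The share was 0.994% in Egfr, 0.190% in Nrg3 and 4.33% in Nrg1. Nrg1 also shares 482 exon bases, 4.66% of its exons, with Gm26578, a noncoding RNA gene (lincRNA) on the opposite strand. Pairs were counted without regard to strand, so pairs wholly within these bases fall on both genes and were counted for neither. Gm26578 itself held 1 to 10 counts per library, which do not show how many of its reads lie in the shared bases.

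Levels between genes were compared as FPKM, that is CPM divided by kilobases of exon. Nrg3 stood highest at 6.66 ± 0.790 FPKM and Erbb4 next at 6.16 ± 1.29 FPKM (SD, n = 12 libraries). Egfr followed at 1.80 ± 0.202 and Erbb3 at 1.79 ± 0.498 FPKM, then Nrg2 at 1.14 ± 0.146 FPKM. Erbb2 stood at 0.539 ± 0.0888 FPKM and Nrg1 at 0.332 ± 0.0558 FPKM. Neither Nrg3 and Erbb4 nor Egfr and Erbb3 were separated beyond their spread, since Nrg3 was above Erbb4 in 10 of 12 libraries and Egfr above Erbb3 in 8 of 12.

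The other neighbours kept their order in all 12 libraries. Of 15930 expressed genes, 61.9% lay below Nrg3, 60.0% below Erbb4, 33.0% below Egfr, 32.9% below Erbb3, 25.7% below Nrg2, 15.5% below Erbb2 and 9.95% below Nrg1. Nrg3 was the highest of the ligands and Erbb4, the receptor it binds, the highest of the receptors, while Nrg1, the ligand most studied in myelination, was the lowest of the 7. The order of the lowest members depends on length: with the longest transcript of each gene in place of all exons, Nrg1 (0.634 FPKM) came above Erbb2 (0.560 FPKM) in the mean and in 7 of 12 libraries. Nrg3 then stood at 11.3 FPKM and above Erbb4 in 12 of 12.

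**Figure D1:**
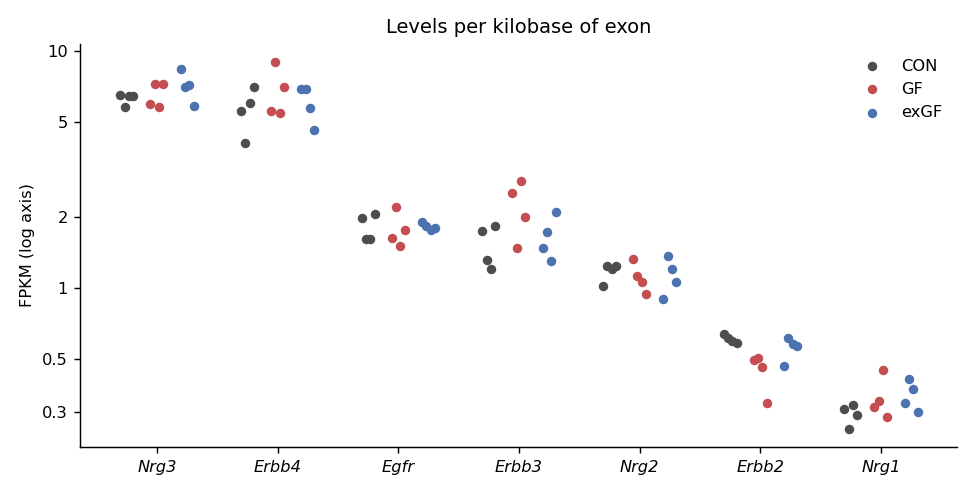
Each point is 1 library, with the FPKM of the gene on a log axis and the 7 genes ordered by their mean over 12 libraries; grey is CON, red GF and blue exGF. Nrg3 and Erbb4 form the upper pair, at 4.08 to 8.94 FPKM, and Erbb2 and Nrg1 reach at most 0.637 FPKM in every library.

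Comparisons between groups used edgeR's quasi-likelihood test on the counts, with Benjamini-Hochberg adjustment over all tested genes and a call at an adjusted p under 0.1. In GF against CON 0.251% of 15542 genes were called, in exGF against CON 0.0696% of 15813, and in exGF against GF 0% of 15569, where 1035 genes had an unadjusted p under 0.05, DESeq2 called 14 and limma-voom 0. Of the 7 members 0 were called in each comparison, by edgeR, by DESeq2 and by limma-voom. At an unadjusted p under 0.05 stood 2 members in GF against CON (8.69% of all genes), 0 in exGF against CON (5.33%) and 0 in exGF against GF (6.65%). The groups did not overlap for 1 member in GF against CON, where 5.08% of all genes did so, for 0 in exGF against CON (3.31%) and for 0 in exGF against GF (3.32%). The median log2 fold change of the 7 was 0.06, 0.09 and 0.03 in the 3 comparisons, beside 0.0069, -0.0065 and -0.0047 over all genes.

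Nrg1, whose protein signals from axons to glia and interneurons, stood at 3.20, 2.64, 3.34 and 3.01 CPM in the CON libraries, 3.27, 3.45, 4.67 and 2.97 in GF and 3.40, 4.27, 3.89 and 3.10 in exGF. The groups overlapped, and GF replicate 3 was the highest library. The log2 fold change was 0.24 ± 0.19 (SE) in GF against CON (edgeR, adjusted p = 0.774), with a 95% interval of the fold from 0.882 to 1.58. In exGF against CON it was 0.25 ± 0.17 (edgeR, adjusted p = 0.952), and 3 of 4 exGF libraries were above every CON library. Nrg1 had only 44 to 110 counts per library, so that counting error alone gives a coefficient of variation of 10.2% to 12.4%, against 9.91% to 20.8% seen between libraries of a group.

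Nrg2, a close relative of Nrg1 made by neurons, stood at 3.20, 3.88, 3.78 and 3.88 CPM in the CON libraries, 4.16, 3.53, 3.33 and 2.97 in GF and 2.82, 4.27, 3.78 and 3.34 in exGF. GF and exGF libraries lay on both sides of the CON range. In GF against CON the log2 fold change was -0.08 ± 0.18 (edgeR, adjusted p = 0.933) and -0.06 ± 0.17 in exGF against CON (edgeR, adjusted p = 0.997). The ligand genes span bases 31814551 to 32884029 of chromosome 8 (Nrg1), 36017652 to 36197380 of chromosome 18 (Nrg2) and 38368952 to 39473088 of chromosome 14 (Nrg3) on GRCm38. The 54 to 111 counts of Nrg2 per library leave a fold between 0.726 and 1.23 within the 95% interval for GF against CON.

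Nrg3, found mainly in neurons and a ligand of ErbB4, stood at 44.4, 39.4, 44.0 and 43.9 CPM in the CON libraries, 40.8, 49.6, 39.5 and 49.2 in GF and 57.3, 48.1, 48.7 and 40.0 in exGF. In GF, replicates 2 and 4 were above all CON libraries and replicates 1 and 3 within their range. The log2 fold change in GF against CON was 0.06 ± 0.10 (edgeR, adjusted p = 0.898), with a 95% interval of the fold from 0.902 to 1.21, the narrowest of the 7 in that comparison. In exGF against CON it was 0.17 ± 0.10 (edgeR, adjusted p = 0.952), and 3 of 4 exGF libraries were above every CON library.

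Egfr, the receptor of EGF and related ligands, stood at 22.4, 18.3, 18.2 and 23.2 CPM in the CON libraries, 18.4, 24.8, 17.1 and 19.8 in GF and 21.5, 20.7, 19.9 and 20.3 in exGF. The exGF libraries lay inside the range of both other groups. In GF against CON the log2 fold change was -0.03 ± 0.13 (edgeR, adjusted p = 0.971), and in exGF against CON the fold was 0.999 with a 95% interval from 0.853 to 1.17 (edgeR, adjusted p = 0.999).

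Erbb2, the partner receptor without a ligand, stood at 3.32, 3.20, 3.10 and 3.05 CPM in the CON libraries, 2.60, 2.64, 2.42 and 1.71 in GF and 2.44, 3.19, 3.04 and 2.96 in exGF. All 4 GF libraries were below all 4 CON libraries, with GF replicate 4 the lowest, and 3 of 4 exGF libraries were below the lowest CON library. The mean was 3.17 ± 0.121 CPM in CON and 2.34 ± 0.434 CPM in GF (SD, n = 4 pools each). Between them the log2 fold change was -0.44 ± 0.20, with a 95% interval from -0.86 to -0.0081 (edgeR, unadjusted p = 0.0463, adjusted p = 0.568), and 8.16% of all genes had a smaller p.

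With each library left out the difference in Erbb2 was -0.51 to -0.31. It was -0.43 without CON replicate 2, the library highest in striatal genes. These values rest on 31 to 59 counts per GF library and 75 to 91 per CON library. The CON libraries were closer to each other (coefficient of variation 3.81%) than counting error alone would give at that depth (11.1%), while the GF libraries spread by 18.5% against a counting error of 15.3%. In exGF against CON the log2 fold change was -0.13 ± 0.17 (edgeR, adjusted p = 0.977), and in exGF against GF it was 0.32 ± 0.20 (edgeR, adjusted p = 0.769) with 3 of 4 exGF libraries above every GF library.

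Erbb3, the neuregulin receptor with a weak kinase, stood at 10.4, 7.89, 7.26 and 11 CPM in the CON libraries, 15.2, 8.90, 17.0 and 11.9 in GF and 8.90, 10.3, 7.84 and 12.5 in exGF. GF replicates 1, 3 and 4 were above all CON libraries, and GF replicate 2 lay within the CON range. The mean was 9.14 ± 1.84 CPM in the CON libraries, 13.2 ± 3.56 in GF and 9.90 ± 2.03 in exGF (SD, n = 4 pools each). The log2 fold change in GF against CON was 0.53 ± 0.20, with a 95% interval from 0.11 to 0.95 (edgeR, unadjusted p = 0.0172, adjusted p = 0.430), and 4.00% of all genes had a smaller p.

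The difference in Erbb3 held its sign without any single library but did not pass the correction: it was 0.38 to 0.68 with each library left out, and the lowest adjusted p was 0.221 by edgeR without GF replicate 2. Without CON replicate 2 it was 0.47. In exGF against GF the log2 fold change was -0.41 ± 0.20, with a 95% interval from -0.83 to 0.010 (edgeR, unadjusted p = 0.0550, adjusted p = 0.739), and 1 of 4 exGF libraries was below every GF library. In exGF against CON it was 0.11 ± 0.17 (edgeR, adjusted p = 0.988), and a fold of 0.832 to 1.40 lay within the 95% interval.

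Erbb4, the main neuregulin receptor of neurons, stood at 68.6, 50.4, 74.3 and 86.9 CPM in the CON libraries, 68.8, 110.5, 67.8 and 87.0 in GF and 85.4, 85.0, 71.2 and 57.2 in exGF. The groups overlapped, with CON replicate 2 the lowest of the 12 libraries and GF replicate 2 the highest. Log2 fold changes were 0.26 ± 0.17 in GF against CON (edgeR, adjusted p = 0.712), 0.09 ± 0.16 in exGF against CON (edgeR, adjusted p = 0.992) and -0.16 ± 0.16 in exGF against GF (edgeR, adjusted p = 0.841). Erbb4 had 925 to 2470 counts per library, so counting error (2.28% to 2.53%) was small beside the spread of 17.95% to 24.0% between libraries of a group. In GF against CON the value was 0.09 without GF replicate 2, 0.13 without CON replicate 2 and 0.38 without CON replicate 4.

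**Figure D2:**
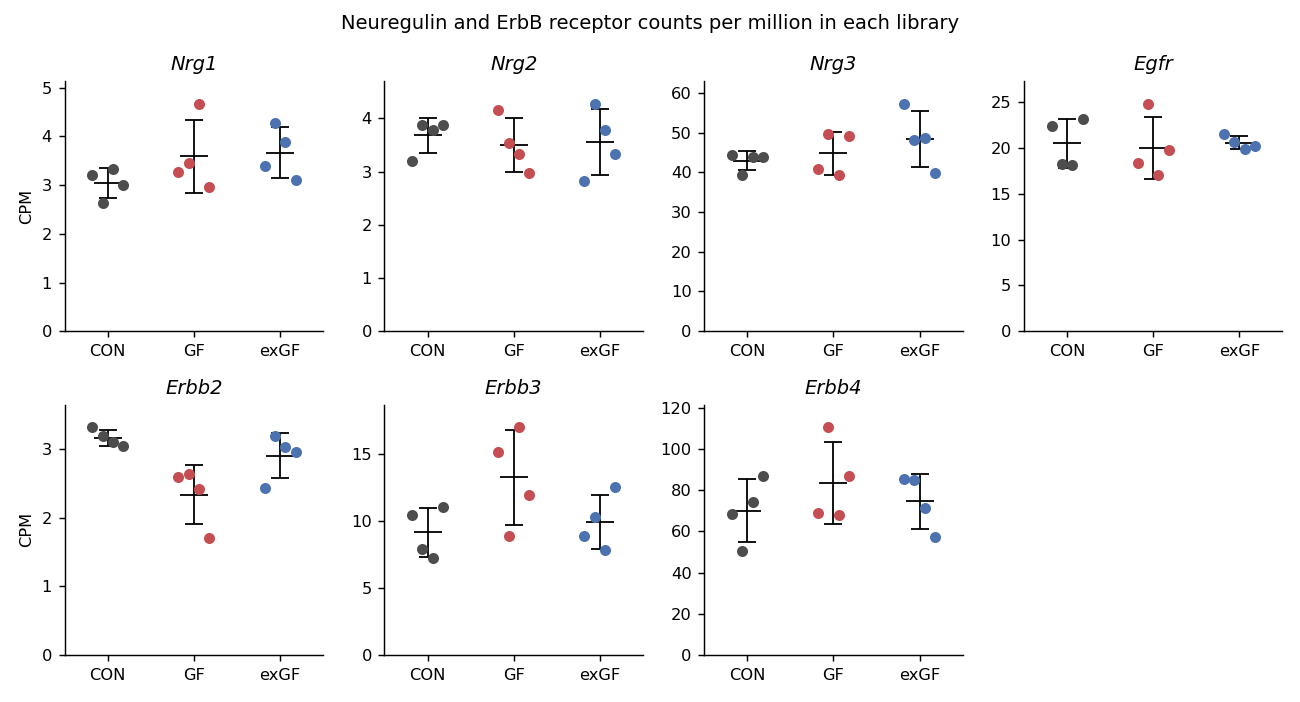
CPM of each gene by library (points) with the group mean and SD (bars, n = 4 pools), on linear axes that start at 0; points of a group run from replicate 1 on the left to 4 on the right, and in exGF from GFR1 to GFR4. Erbb2 is the gene whose 4 GF libraries (1.71 to 2.64 CPM) all lie under the CON libraries, and for Erbb3 3 of 4 GF libraries lie over them.

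**Figure D3:**
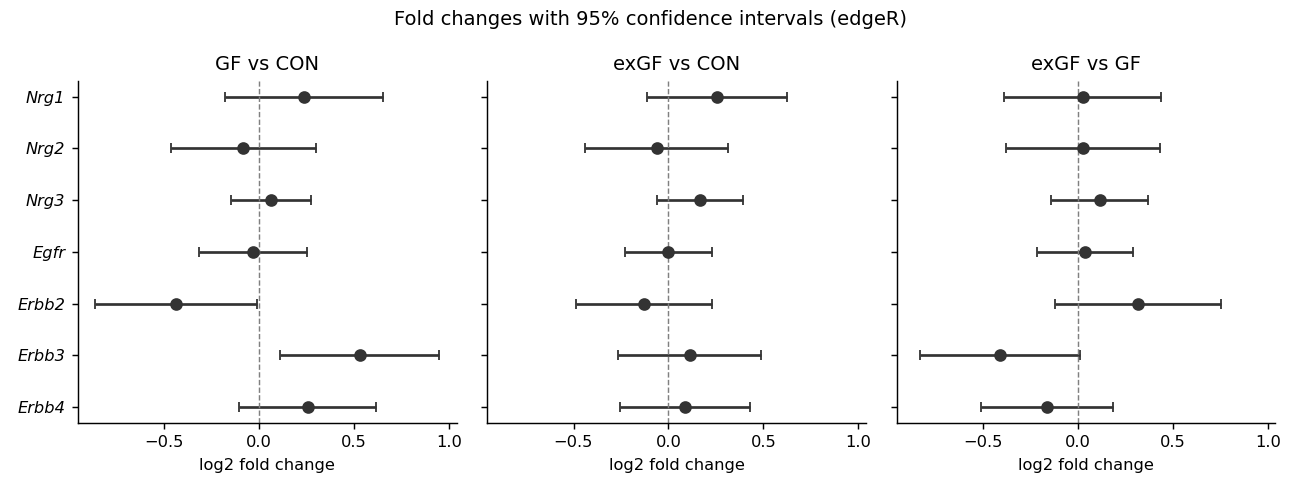
Log2 fold change (points) and 95% confidence interval (bars) of each gene by edgeR in the 3 comparisons. The intervals of Erbb2 and Erbb3 leave out 0 in GF against CON before correction for the number of genes, and those of the other 5 genes and of all 7 in the comparisons with exGF include it.

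Because ErbB3 signals through a partner such as ErbB2, their levels were also set side by side within each library, as a description without a test. The ratio of Erbb3 to Erbb2 FPKM was 2.72, 2.14, 2.03 and 3.13 in CON, 5.05, 2.92, 6.08 and 6.06 in GF and 3.16, 2.80, 2.24 and 3.66 in exGF. GF replicates 1, 3 and 4 stood above the other 9 libraries. A higher ratio in GF follows from the higher Erbb3 and lower Erbb2 already given, so it is not a separate result. The ratio of Erbb4 to Erbb2, also a pair of receptors, was 6.646 to 12.03 in CON and 11.14 to 21.51 in GF. In exGF it was 8.143 to 14.74, and the 3 groups overlapped. The ratio of Erbb4 to Nrg3 FPKM stayed between 0.707 and 1.23 in all 12 libraries.

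Erbb3 and the mature oligodendrocyte genes were next compared library by library. In GF against CON 7 of 10 oligodendrocyte genes were called by edgeR, all 10 were higher and their median log2 fold change was 0.82. Summed CPM of these genes was highest in GF replicate 3 (5709), where Erbb3 was also highest, and within GF it was lowest in replicate 2 (3400), where Erbb3 was lowest. Over the 12 libraries, log2 CPM of Erbb3 and the mean log2 CPM of the list had a Pearson r of 0.795 (permutation p = 0.00218, adjusted p = 0.153 over 70 pairs of gene and list) and a Spearman rho of 0.783 (permutation p = 0.00361). The permutations mixed the groups, so these p-values also take in differences between groups. Without GF replicates 3 and 1, the libraries farthest from the median of the list, r was 0.567 (permutation p = 0.0905), so the relation rests in part on these libraries, and within groups r was 0.651. The part of the oligodendrocyte level in the Erbb3 values was not tested, and in bulk tissue fewer or more cells of a type and less or more RNA per cell cannot be told apart.

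Of the 8 oligodendrocyte precursor genes 0 were called by edgeR and 0 had an unadjusted p under 0.05 in any of the 3 comparisons. Their summed CPM was 614.9 to 672.2 in CON, 599.3 to 650.0 in GF and 600.3 to 702.2 in exGF. This sum rests mainly on Ptprz1 and Bcan, with means of 234.2 and 208 CPM. Erbb2 went the other way from the mature oligodendrocyte list over all libraries (r = -0.662, permutation p = 0.0162, rho = -0.706, permutation p = 0.0133, adjusted p = 0.284, and r = -0.708 without the same 2 libraries), but r within groups was -0.203. Beside Erbb2, the genes of the meninges were also lower in GF, with a median log2 fold change of -0.50, all 8 lower and 2 called by edgeR (Col1a2 and Slc6a13). Their summed CPM was 186.4 to 261.1 in CON, 125.8 to 174.9 in GF and 144.2 to 193.4 in exGF. Over the 12 libraries Erbb2 and the meninges list had r = 0.481 (permutation p = 0.121, adjusted p = 0.529) and rho = 0.706 (permutation p = 0.0126), with r = 0.443 without CON replicate 1 and GF replicate 1 and -0.133 within groups. The meninges genes had a median of -0.41 in exGF against CON, with 8 of 8 lower and 6 at an unadjusted p under 0.05 by edgeR. Erbb2 had -0.13 in that comparison. The part of the meninges in the Erbb2 values was not tested.

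The lowest Erbb4 values of CON and exGF were in the libraries highest in striatal genes, CON replicate 2 and GFR4. Over the 12 libraries Erbb4 and the striatal list had r = -0.522 (permutation p = 0.0858, adjusted p = 0.529) and rho = -0.0769 (permutation p = 0.818), and without these libraries r was 0.580 (permutation p = 0.0743), so the negative sign rests on them. Without CON replicate 2 in comparisons with CON and GFR4 in those with exGF, the log2 fold change of Erbb4 was 0.13 in GF against CON, 0.08 in exGF against CON and -0.05 in exGF against GF, with adjusted p-values by edgeR of 0.863, 0.982 and 0.943. The 10 genes of the interneuron list, taken as markers of the cells known for ErbB4, had a median log2 fold change of 0.12 in GF against CON with 0 called by edgeR. Parvalbumin (Pvalb) of fast-spiking interneurons was their only gene at an unadjusted p under 0.05, at 0.41 ± 0.18 (edgeR, adjusted p = 0.560). Over libraries Erbb4 had r = -0.0927 with the interneuron list (rho = -0.210, permutation p = 0.774 for r and 0.514 for rho) and 0.718 with the excitatory neuron list (rho = 0.643, permutation p = 0.00852 for r and 0.0280 for rho, adjusted p = 0.200, 0.614 without CON replicate 2 and GFR3, 0.684 within groups).

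**Figure D4:**
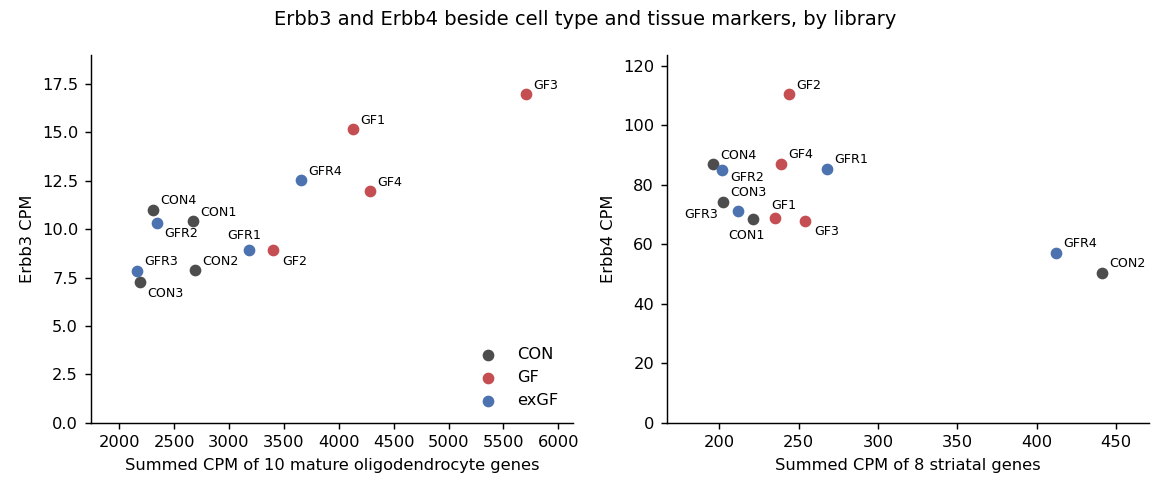
Left, Erbb3 CPM against the summed CPM of 10 mature oligodendrocyte genes; right, Erbb4 CPM against the summed CPM of 8 striatal genes; each point is a named library, grey CON, red GF and blue exGF. GF3 has the highest value on both axes of the left panel (5709 and 17.0 CPM), and CON2 and GFR4 stand apart on the right at 441.4 and 412.3 summed CPM.

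Among the 7 genes, the pair with the closest course over the libraries was Nrg3 and Erbb4. Their log2 CPM had r = 0.718 (permutation p = 0.00848, adjusted p = 0.178 over 21 pairs) and rho = 0.797 (permutation p = 0.00288), r was 0.739 without GFR1 and CON replicate 2 and 0.813 within groups. Egfr and Erbb4 followed (r = 0.642, permutation p = 0.0236, rho = 0.538, permutation p = 0.0750, adjusted p = 0.248, and 0.473 without GF replicates 2 and 3). None of the 21 pairs passed the correction. Erbb2 and Erbb3 had r = -0.405 (permutation p = 0.194) and rho = -0.497 (permutation p = 0.104) over all libraries, -0.232 without GF replicates 3 and 4, and 0.082 within groups.

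The genes most like each member over the 12 libraries were taken from 16031 others by Pearson r of log2 CPM, so high values arise from the search itself. Erbb4 was most like Prkaa2 (r = 0.978), Snap91 (0.972) and Cdh12 (0.969), and Nrg3 most like Plch1 (0.893), Armcx5 (0.886) and Trhde (0.883). Erbb3 was most like Unc5b (0.934), Adamts4 (0.892) and 8030453O22Rik (0.889), and Erbb2 most like Stag3 (0.932), Sbno2 (0.927) and Cbs (0.896). For Egfr these were Cachd1 (0.914), Hey2 (0.873) and Acvr1c (0.869), for Nrg2 Carmil3 (0.919), Rfx1 (0.901) and Csf3r (0.894), and for Nrg1 Gm16938 (0.918), Mtif2 (0.839) and Rell2 (0.820). Stag3 averaged 0.448 CPM and Gm16938 1.72 CPM, so these likenesses rest on few reads.

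The wider pathway was followed in 5 lists with 68 genes. By edgeR 0 of them were called in GF against CON, in exGF against CON or in exGF against GF, and DESeq2 and limma-voom called 0 as well. At an unadjusted p under 0.05 by edgeR stood 3 of 65 tested genes in GF against CON, 2 of 64 in exGF against CON and 0 of 64 in exGF against GF, beside the shares of 8.69%, 5.33% and 6.65% of all genes. Of the 8 other ErbB ligands Tgfa and Hbegf were the highest, with CON means of 15.6 and 7.65 CPM. Ereg had no count in any library, and Areg, Ereg and Epgn were too low to test in every comparison and betacellulin (Btc) in the comparisons with exGF. Of the tested ligands 2 of 5 were higher and 3 lower in GF against CON (median log2 fold change -0.04), and 4 of 4 were higher in exGF against CON (0.16) and in exGF against GF (0.11).

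Nrg4, the neuregulin known as a signal from fat tissue, averaged 0.913 ± 0.283 CPM in the CON libraries, 1.35 ± 0.328 in GF and 1.48 ± 0.280 in exGF (SD, n = 4 pools each). All 4 GF and all 4 exGF libraries were above all CON libraries. The groups did not overlap for 5.08% of all genes in GF against CON and 3.31% in exGF against CON. At such low CPM the Nrg4 values rest on few reads. Log2 fold changes were 0.57 ± 0.32 in GF against CON (edgeR, unadjusted p = 0.0934, adjusted p = 0.643) and 0.69 ± 0.29 in exGF against CON (edgeR, unadjusted p = 0.0348, adjusted p = 0.892), and these share the CON libraries. Heparin-binding EGF (Hbegf) had 0.16 ± 0.18 and 0.19 ± 0.17 in the same comparisons, with adjusted p-values by edgeR of 0.855 and 0.968. In exGF against GF the smallest p-values of this list were those of Egf (0.40 ± 0.41) and Tgfa (0.09 ± 0.10), with adjusted p-values by edgeR of 0.844 and 0.851.

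A list of 15 genes held proteases that cut ErbB ligands or receptors, γ-secretase subunits among them, and their partners. Of these, 8 were higher and 7 lower in GF against CON, with a median of 0.0027, and 9 and 6 in exGF against CON, with a median of 0.025. Bace2, a relative of the enzyme that cuts neuregulin 1, averaged 4.03 ± 0.784 CPM in CON and 5.81 ± 1.49 in GF, and its log2 fold change was 0.51 ± 0.21 (edgeR, unadjusted p = 0.0306, adjusted p = 0.508). Aph1b of γ-secretase had 0.19 ± 0.10 in GF against CON (edgeR, adjusted p = 0.618). All 4 GF libraries were above all CON libraries, beside 5.08% of all genes without overlap in GF against CON. In exGF against CON Bace2 had 0.40 ± 0.23 and Ncstn of γ-secretase 0.11 ± 0.08, and in exGF against GF, where 8 were higher and 7 lower (median 0.022), Adam19 had 0.17 ± 0.11 and Adam10 -0.15 ± 0.13.

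In the 22 adaptors, PI3K subunits and kinases, 14 were higher and 8 lower in GF against CON (median 0.012), 10 and 12 in exGF against CON (-0.0028) and 9 and 13 in exGF against GF (-0.020). No gene of the list reached an unadjusted p under 0.05 in any of these. The adaptors closest to it were Shc1 (-0.23 ± 0.14) and Grb7 (-0.69 ± 0.43) in GF against CON, Shc2 (0.15 ± 0.09) and Shc1 (-0.17 ± 0.12) in exGF against CON, and Shc4 (-0.33 ± 0.16) and Shc2 (0.15 ± 0.10) in exGF against GF. Grb7 stood near 1 CPM, and its 95% interval in GF against CON ran from -1.61 to 0.22.

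The 12 inhibitors and ubiquitin enzymes were higher in 8 and lower in 4 in GF against CON (median 0.029), in 7 and 5 in exGF against CON (0.013) and in 6 and 6 in exGF against GF (0.0076). Rnf41 encodes a ubiquitin ligase that marks ErbB3 for breakdown. It averaged 73.2 ± 1.82 CPM in the CON libraries, 62.5 ± 3.04 in GF and 64.7 ± 9.11 in exGF. All 4 GF libraries were below all CON libraries, beside 5.08% of all genes without overlap in GF against CON. Log2 fold changes were -0.23 ± 0.08 in GF against CON (edgeR, unadjusted p = 0.00950, adjusted p = 0.369) and -0.19 ± 0.10 in exGF against CON (edgeR, adjusted p = 0.952). Wwp1, a ubiquitin ligase of ErbB4, had 0.22 ± 0.11 in GF against CON (edgeR, adjusted p = 0.596). Lrig3 had -0.44 ± 0.23 in exGF against CON, and Errfi1 (-0.19 ± 0.12) and Lrig2 (0.12 ± 0.09) had the smallest p-values in exGF against GF.

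Of the 11 scaffolds and partners, 8 were higher and 3 lower in GF against CON (median 0.012), 7 and 4 in exGF against CON (0.021) and 6 and 5 in exGF against GF (0.016). Erbin, which binds ErbB2 at the membrane, averaged 54.5 ± 6.22 CPM in CON and 64.1 ± 7.58 in GF, and its log2 fold change was 0.24 ± 0.11 (edgeR, unadjusted p = 0.0445, adjusted p = 0.563). The synaptic scaffold Dlg1 had 0.08 ± 0.08 in the same comparison, and Dlg4 (PSD-95), which binds ErbB4, had 0.06 ± 0.08 in exGF against CON. Cd44, a surface partner of ErbB2, had -0.35 ± 0.16 in exGF against CON (edgeR, unadjusted p = 0.0491, adjusted p = 0.924), with 3 of 4 exGF libraries below every CON library. In exGF against GF Cd44 had -0.36 ± 0.20 and Erbin -0.19 ± 0.13, with adjusted p-values by edgeR of 0.755 and 0.788.

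**Figure D5:**
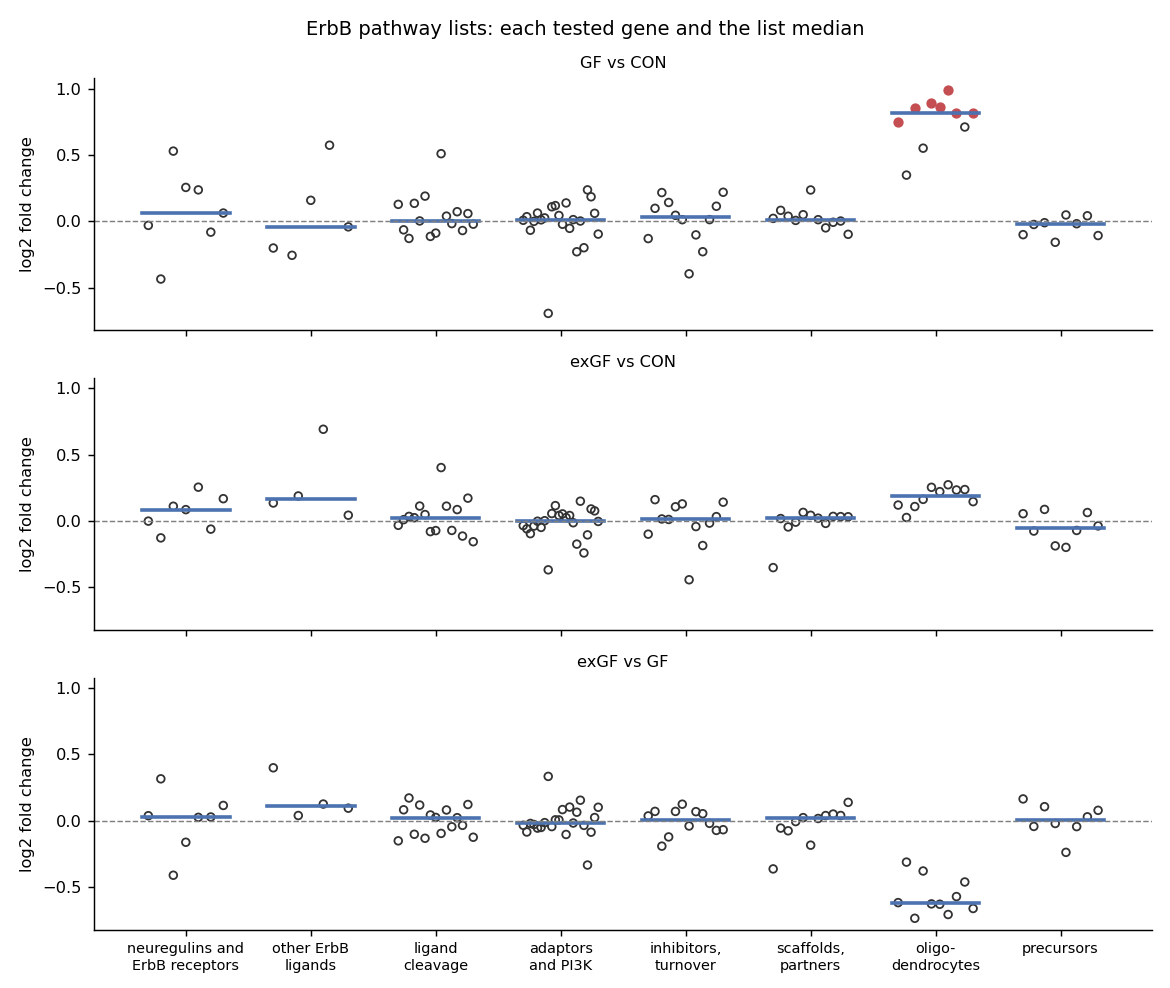
Log2 fold change of every tested gene (circles, filled red where called by edgeR at an adjusted p under 0.1) and the median of each list (blue bar) in the 3 comparisons. The lists of the ErbB pathway hold no called gene, with medians between -0.04 and 0.16, and the mature oligodendrocyte genes in GF against CON, shown beside them, have a median of 0.82 with 7 called.

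The marker genes of highest CPM in the lists set beside the members were present throughout. Mbp of myelin ran from 983 to 2565 CPM over the 12 libraries. Ptprz1 and Bcan of the precursor list ran from 188.9 to 271.3 and from 176.3 to 252.1. Cck and Gad1 of the interneuron list ran from 273.7 to 448 and from 274.4 to 346.7. Slc1a2 and Aldoc of astrocytes ran from 2248 to 2941 and from 760.1 to 966.5. Csf1r of microglia ran from 84.4 to 113.2, Flt1 and Slco1a4 of endothelium from 80.5 to 112.2 and from 32.0 to 59.4, and Igf2 and Col1a2 of meninges from 52.4 to 116.1 and from 18.2 to 36.0 CPM. Kl and Ttr of choroid plexus were low, at 1.82 to 4.26 and 0.124 to 9.29 CPM, and Ppp1r1b and Penk of striatum ran from 73.0 to 158.7 and from 54.9 to 142.7 CPM. In GF against CON 0 of 10 excitatory neuron, 8 astrocyte, 8 microglia, 8 endothelium, 3 tested choroid plexus and 8 striatum genes were called by edgeR, and 2, 1, 2, 3, 1 and 0 of them had an unadjusted p under 0.05. DESeq2 called 1 of them, Kl, and limma-voom 0. Their median log2 fold changes were 0.06, 0.03, -0.12, -0.0070, -0.18 and -0.16.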

How the data were processed

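PolyA RNA of 12 PFC pools was sequenced as stranded paired reads. The authors deposited raw counts: pairs trimmed with Trimmomatic 0.32, aligned to GRCm38.p3 with STAR and counted per gene with HTSeq 0.6.0 without regard to strand (versions from the submitters' processing notes, which differ from the study's methods for STAR). Pairs outside genes (4.57% to 7.31%), in several genes (1.10% to 1.32%) or aligned to several places (13.0% to 19.2%) were left out, so reads of shared sequence are missing. For each pair of groups, counts were filtered by filterByExpr, normalized by TMM and tested by edgeR 4.0.16 in R 4.3.3 with Benjamini-Hochberg adjustment. The adjusted p threshold of 0.1 follows the study. CPM used TMM library sizes over 12 libraries, log2 CPM a prior count of 1, and FPKM the exon lengths of a GRCm38 annotation, which named 40254 of 41388 genes. Correlations were tested with 100000 permutations of libraries without regard to group, so their p-values also take in differences between groups.

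The 7 members, 5 pathway lists and 10 cell type lists were chosen with earlier results of these data known. Named were all members, per pathway list and comparison the 2 genes with the smallest p, per member the 3 most similar genes, and from cell type lists the 2 genes of highest CPM, of which some are not reported here; Pvalb and Slc6a13 were named after their values were seen. Counts per library and pools of 2 to 3 animals set the precision, and the labels number replicates without saying that pools with the same number belong together. Alternatives were RLE normalization, no filter, at least 10 counts in every library, DESeq2 1.42.0 with a prior on fold changes, limma-voom (limma 3.58.1), a single fit of 12 libraries, a threshold of 0.05, the replicate number as a block, each library left out, the longest transcript for length and a prior count of 5. Leaving out the 2 libraries highest in striatal genes was added after the data had been seen. The qRT-PCR, microscopy and protein data were not analysed here.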

Additional observations from a re-analysis of the deposited data

Results flagged for a closer look

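In CON, Nrg2 was lower in replicate 1 (3.20 CPM) than in the other 3 libraries (3.78 to 3.88 CPM), and the gap took 0.855 of the group's range. Nrg3 in CON was lower in replicate 2 (39.4 CPM, where the others had 43.9 to 44.4 CPM), with a gap of 0.885 of the range. These 2 values passed Dixon's 95% limit for 4 libraries among 21 groups examined, of which chance alone passes about 1 in 20. Replicate 2 of CON is also the library highest in striatal genes.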

How the results depend on the processing

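No member was called in any comparison under any alternative. Of 308 separate alternative fits of members, 280 kept the sign and 28 changed it. The largest of the reported values that changed sign was Erbb4 in exGF against GF (-0.16, and 0.0023 without GF replicate 2). Egfr in exGF against CON (-0.0012) was 0.0036 with RLE, 0.012 without a filter, 0.0012 with at least 10 counts, 0.0020 with DESeq2, 0.0060 with limma-voom and 0.0053 in the single fit. Without CON replicate 2 and GFR4, Nrg2 was 0.0099 and Erbb3 -0.072 in exGF against CON. With each library left out, Egfr ran from -0.16 to 0.039 in GF against CON; in exGF against CON Egfr ran from -0.055 to 0.059, Erbb4 from -0.039 to 0.21, Nrg2 from -0.15 to 0.045 and Erbb3 from -0.0089 to 0.21; in exGF against GF Nrg1 ran from -0.057 to 0.18, Nrg2 from -0.071 to 0.12, Egfr from -0.034 to 0.16 and Erbb4 from -0.25 to 0.0023. Over its alternatives in GF against CON, Erbb3 kept its sign (0.31 to 0.68, adjusted p 0.221 to 0.720) and so did Erbb2 (-0.51 to -0.24, adjusted p 0.417 to 0.814).

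Genes called in GF against CON (39) were 221 without a filter, 195 with DESeq2 and 27 to 60 with each library left out, the highest without GF replicate 2. In exGF against CON (11) they were 48 without a filter, 7 with at least 10 counts, 52 with DESeq2 and 17 without CON replicate 2 and GFR4. In exGF against GF (0) they were 32 without a filter, 14 with DESeq2, 2 in the single fit, 6 without GFR4, and 0 to 7 with each library left out, the highest without GFR1. The causes were not tested. With the longest transcript, 5 of 7 members kept their rank of level. With the replicate number as a block, 51 genes and 0 members were called in GF against CON, and same-numbered libraries did not deviate together (r from -0.0843 to 0.0479). Depth limits Nrg1, Nrg2 and Erbb2, which had at most 111 counts in any library and a counting error of 10.2% to 15.3% of the mean.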
